A study of Mus musculus with 12 samples.

Results

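Proteasome genes were followed in 12 RNA-seq samples of mouse bone marrow-derived macrophages (BMDMs), 3 samples in each of 4 groups. The genes were every row whose symbol begins with Psm, a letter from a to g and a number, without the immunoproteasome subunits Psmb8, Psmb9 and Psmb10. This gave 46 of the 23361 gene symbols in the files, each with 1 row. They comprise 16 subunits of the 20S core, 17 of the 19S cap, 4 activators, 1 inhibitor, 7 assembly chaperones and Psmc3ip, a recombination factor that shares the name of an ATPase subunit without being one. The BMDMs came from wild-type C57BL/6 mice aged 8 to 12 weeks, and in all groups bone marrow cells were grown for 6 days in medium conditioned by L929 cells, a source of the growth factor M-CSF. Control cells received no further stimulus, IL-4 cells received IL-4 at 20 ng/ml for 24 h, LPS cells received LPS at 100 ng/ml for 3 h, and IL-4+LPS cells received IL-4 for 24 h and then LPS for 3 h. IL-4 drives alternative macrophage polarization, and LPS, a bacterial cell wall component, drives an inflammatory response. The groups allow the question of whether IL-4 changes proteasome gene expression, and whether it does so in cells that also meet LPS.

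The proteasome degrades proteins that carry ubiquitin. Its 20S core is a barrel of alpha and beta rings, and the beta subunits encoded by Psmb5, Psmb6 and Psmb7 hold the proteolytic sites. The 19S cap, made of ATPases (Psmc genes) and other subunits (Psmd genes), binds ubiquitinated substrates, removes the ubiquitin and unfolds them. The activators PA28 alpha and beta (Psme1 and Psme2) can open the core without the 19S cap and are known for induction by interferon gamma in antigen-presenting cells. Chaperones of the Psmg family guide assembly of the core, and Psmd5, Psmd9 and Psmd10 guide assembly of the base of the cap.

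Values are FPKM, in which fragment counts are divided by transcript length and by the total of the sample, so levels are per length. Tests were limma contrasts on log2(FPKM + 1) over the 11191 rows with at least 1 FPKM in at least 1 sample, and a gene was called at a Benjamini-Hochberg adjusted p under 0.05. Of the members 45 passed this filter. Psmb11, the beta subunit of thymic epithelium, did not pass it and reached at most 0.0118 FPKM. Depth ran from 0.991 to 3.3 relative to control replicate 1. Replicate 1 stood apart from replicates 2 and 3 in every group, so counts are also given for replicates 2 and 3 alone. Shares of all rows are not given for those counts, so they are not read as particular to the members. All 6 macrophage markers were at 1 FPKM or more in every group, and their sum was 19160 to 20530 FPKM in the control samples, 7556 to 7770 with IL-4, 15380 to 16610 with LPS, and 6551 to 6935 with both, of which Lyz2 made up most. T cell, B cell, fibroblast and mast cell markers all lay below 1 FPKM. Of the dendritic cell markers, Flt3 lay below 1 FPKM in all samples, and Zbtb46 reached at most 0.562 FPKM in the first 3 groups and lay between 1.94 and 2.83 FPKM with both stimuli. The 4 neutrophil markers found in the files summed to 307 to 818 FPKM in the control samples, 210 to 389 with IL-4, 487 to 974 with LPS, and 413 to 813 with both stimuli, and the part of these markers in the results was not tested. In bulk samples, fewer cells of a type and less RNA per cell cannot be told apart.

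LPS shifted the whole table. Over all 11191 rows the median log2 fold change was -0.44 for LPS minus control and -0.41 for IL-4+LPS minus IL-4, against -0.05 for IL-4 minus control and -0.03 for IL-4+LPS minus LPS. LPS changes are therefore set beside that shift, and counts for LPS minus control and IL-4+LPS minus IL-4 are also given after scaling the samples to a common median, which left medians of -0.14 and -0.12 over all rows.

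Sequence before the start is shown for 7 members that are described with values below. The bases come from RefSeq (GRCm38.p6) and are the 100 nearest to the start that lie outside annotated exons, with motif letters in capitals.
Psmb6, chr11:70525257-70525356, plus strand: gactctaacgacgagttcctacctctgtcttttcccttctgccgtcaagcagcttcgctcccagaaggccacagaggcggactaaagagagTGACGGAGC
Psmd14, chr2:61711594-61711693, plus strand: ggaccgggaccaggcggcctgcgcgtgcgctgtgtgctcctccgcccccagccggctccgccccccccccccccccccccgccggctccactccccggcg
Psmd11, chr11:80428515-80428614, plus strand: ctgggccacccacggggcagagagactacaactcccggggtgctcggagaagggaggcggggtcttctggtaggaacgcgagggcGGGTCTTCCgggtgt
Psma6, chr12:55398675-55398774, plus strand: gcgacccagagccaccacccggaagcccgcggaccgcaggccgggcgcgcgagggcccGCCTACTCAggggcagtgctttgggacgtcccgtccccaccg
Psme2, chr14:55591114-55591213, minus strand: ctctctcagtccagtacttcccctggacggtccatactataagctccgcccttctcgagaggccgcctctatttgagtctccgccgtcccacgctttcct
Psmd10, chrX:140956729-140956828, minus strand: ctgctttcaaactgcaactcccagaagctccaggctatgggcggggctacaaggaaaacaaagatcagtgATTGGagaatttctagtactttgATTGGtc
Psmg1, chr16:95990961-95991060, minus strand: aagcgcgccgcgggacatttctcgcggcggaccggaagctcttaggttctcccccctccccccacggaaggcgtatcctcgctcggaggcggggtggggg
The capitals mark TGANNNNGC, the antioxidant response element core, in Psmb6 and Psma6, GGGNNTTCC, a kappaB motif, in Psmd11, and CCAAT, the NF-Y motif, in Psmd10, each searched on both strands. RefSeq windows of 250 bases before the start matched 38 of the 46 members. Among these, the antioxidant response element core was found in 16 members (42.1%, against 38.7% of all 27025 genes with a window) and CCAAT in 14 (36.8% against 37.5%). The kappaB motif was found in Psmd11 alone (2.63% against 5.61%). GAAANNGAA, as in interferon-stimulated response elements, was found in 3 members (7.89% against 8.18%). The STAT6 motif, TTC and GAA parted by 4 bases, was found in 0 members against 6.76% of all genes. These letters are a description of the windows, and matches are not sites shown to be bound.

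In control BMDMs the core had the highest median level of the classes. The median of the mean levels was 96.9 FPKM over the 15 core subunits, 54.2 FPKM over the 17 subunits of the cap, 33.1 FPKM over the 4 activators and 14.2 FPKM over the 7 chaperones. Psmb4 was highest in control at 133 ± 20 FPKM (SD, n = 3), followed by Psmb6 at 130 ± 10 FPKM and Psmd8, a lid subunit, at 130 ± 6.6 FPKM, and these means did not differ beyond their spread. Psma8, the testis form of an alpha subunit, was near the floor at 0.676 ± 0.19 FPKM in control. Within a class, levels were uneven, since the core subunit Psma3 was at 15.6 ± 1.6 FPKM. Psma3 is 1 of 7 members for which over 20% of the 50-base words of the longest transcript also occur in another gene. The others are Psma4, Psma5, Psmb5, Psmd2, Psme2 and Psmc3ip, and the values of these 7 are uncertain to that extent. The libraries did not mark strand, and genes on the other strand overlap 25.5% of the exon bases of Psmd9, 21.2% of Psmc3ip, 11.8% of Psmb7 and 10.1% of Psmd13, so part of their values could belong to those genes.

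**Figure D1:**
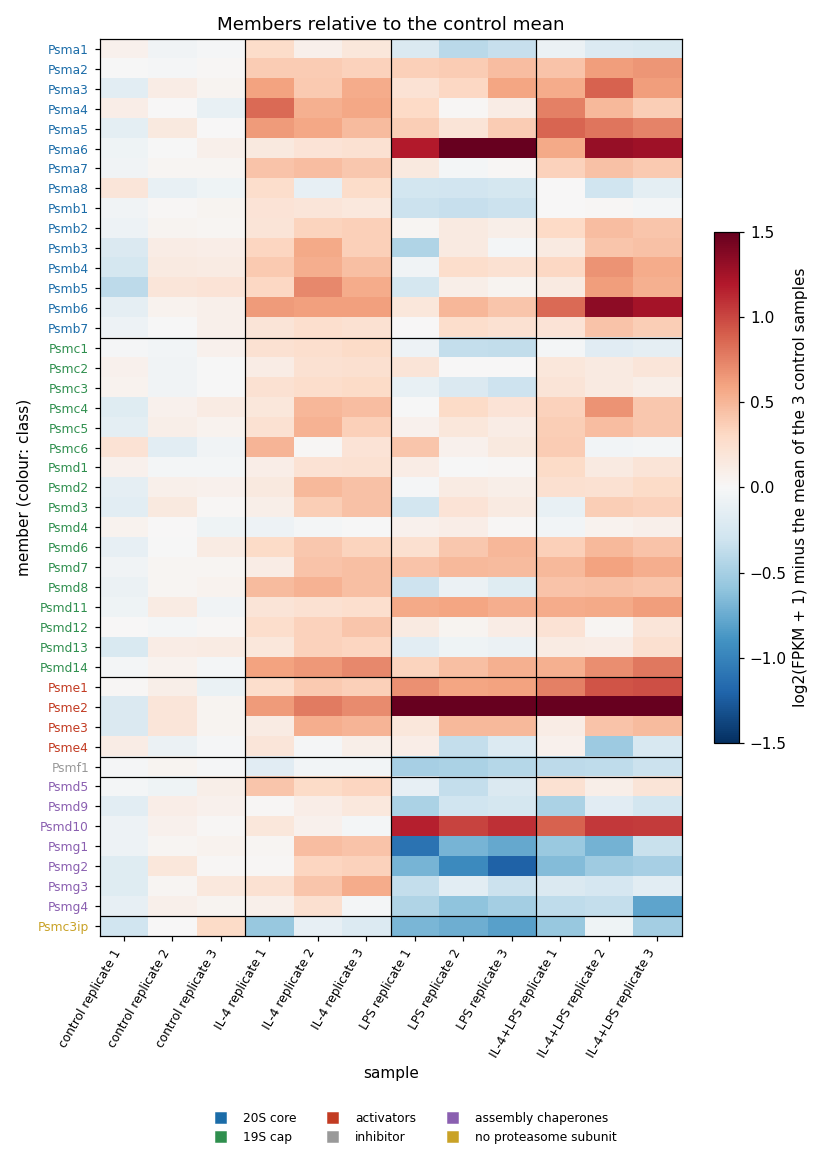
The 45 expressed members (rows, label colour for the class) in the 12 samples (columns), as log2(FPKM + 1) minus the mean of the 3 control samples; the colour scale stops at 1.5 in either direction, which Psma6 and Psme2 exceed. Most core and cap rows are red in the IL-4 and IL-4+LPS columns, while Psma6, Psme2 and Psmd10 are red in the LPS columns and 4 Psmg rows are blue there.

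IL-4 raised proteasome genes broadly. Of the 45 members tested, 27 were higher in IL-4 than in control and 0 were lower by limma, with 0 lower at an unadjusted p under 0.05 and 0 by a per-gene Tukey test. Among all rows tested, 16.0% were higher and 21.0% were lower. The members' median log2 fold change was 0.30, and 42 of 45 were above 0. The 42 include Psma8, which reached 1 FPKM only in IL-4 replicates 1 and 3, so its sign is not read as a rise. Replicates 2 and 3 alone gave 36 higher and 0 lower. The count higher fell to 17 without IL-4 replicate 3, and 17 of the 27 calls held whichever sample was removed.

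By class, 10 of 15 core subunits rose with IL-4, with a median log2 fold change of 0.42 ± 0.03 (SD between the IL-4 samples, n = 3). Here 0.42 is the median of the genes' fold changes. The SD is that of class medians taken sample by sample, which for the core were 0.33, 0.39 and 0.36. In the alpha ring 5 of 8 were higher, with a median of 0.40, and in the beta ring 5 of 7, with a median of 0.42. In the cap 13 of 17 rose, with a median of 0.30 ± 0.09, divided into 4 of 6 ATPases and 9 of 11 other subunits. Among activators 2 of 4 rose and among chaperones 2 of 7. No test of the difference between classes was run.

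Of the proteolytic subunits, Psmb6 and Psmb5 rose with IL-4 and Psmb7 did not pass the threshold. Differences between the 3 were not tested. Psmb6, which carries the caspase-like site, was at 118, 134 and 137 FPKM in control and at 201, 199 and 198 FPKM in IL-4. Its groups did not overlap, and the log2 fold change was 0.62 ± 0.13 (SE, adjusted p = 0.0035, limma). Psmb5, which carries the chymotrypsin-like site, was at 64, 96 and 97.1 FPKM in control and 105, 140 and 124 FPKM in IL-4. Replicate 1 was the lowest sample of both groups, the log2 fold change was 0.53 ± 0.19 (adjusted p = 0.0493, limma), and the call held in 4 of 12 fits with a sample removed. Psmb7, which carries the trypsin-like site, was at 96.9 ± 5.2 FPKM in control and 113 ± 2.4 FPKM in IL-4, and its log2 fold change of 0.22 ± 0.08 did not pass (adjusted p = 0.059, limma).

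The largest IL-4 changes were in Psme2, Psmd14 and Psma4. Psme2, PA28 beta, was at 33.5, 44.5 and 40.4 FPKM in control and 61.7, 67.9 and 64.7 FPKM in IL-4, a log2 fold change of 0.71 ± 0.15 (adjusted p = 0.00397, limma). All IL-4 samples lay above all control samples, although 59.3% of the words of Psme2 are shared, mostly with Psme2b. Psmd14, the deubiquitinase of the lid, was at 39.5, 42.1 and 39.6 FPKM in control and 62, 63.7 and 67.4 FPKM in IL-4, a log2 fold change of 0.66 ± 0.08 (adjusted p = 0.000126, limma). Psma4, an alpha subunit, was at 62.2, 57.9 and 53.6 FPKM in control and 105, 84.4 and 87 FPKM in IL-4, a log2 fold change of 0.66 ± 0.12 (adjusted p = 0.00192, limma). Further alpha subunits that rose were Psma5 (0.57 ± 0.09), Psma3 (0.52 ± 0.12) and Psma7 (0.43 ± 0.06), on the same log2 scale.

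Some members did not pass the threshold with IL-4. Psmd4, a ubiquitin receptor of the cap, was at 71 ± 3 FPKM in control and 69.2 ± 2 FPKM in IL-4, with a log2 fold change of -0.04 ± 0.06 (adjusted p = 0.666, limma). Psmf1, the inhibitor PI31, was at 8.8 ± 0.22 and 8.26 ± 0.49 FPKM (log2 fold change -0.08 ± 0.06, adjusted p = 0.346, limma). The activator Psme4, PA200, had a log2 fold change of 0.08 ± 0.15. The ATPase Psmc6 had one of 0.24 ± 0.16, an estimate as large as that of called members such as Psmd11 (0.22 ± 0.06) but with a wider error. The fold changes of the core subunits tested lay between 0.14 and 0.66. The lowest was that of Psma8, which passed the filter only through IL-4 samples and whose groups overlapped. The next lowest was Psma1 at 0.17.

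**Figure D2:**
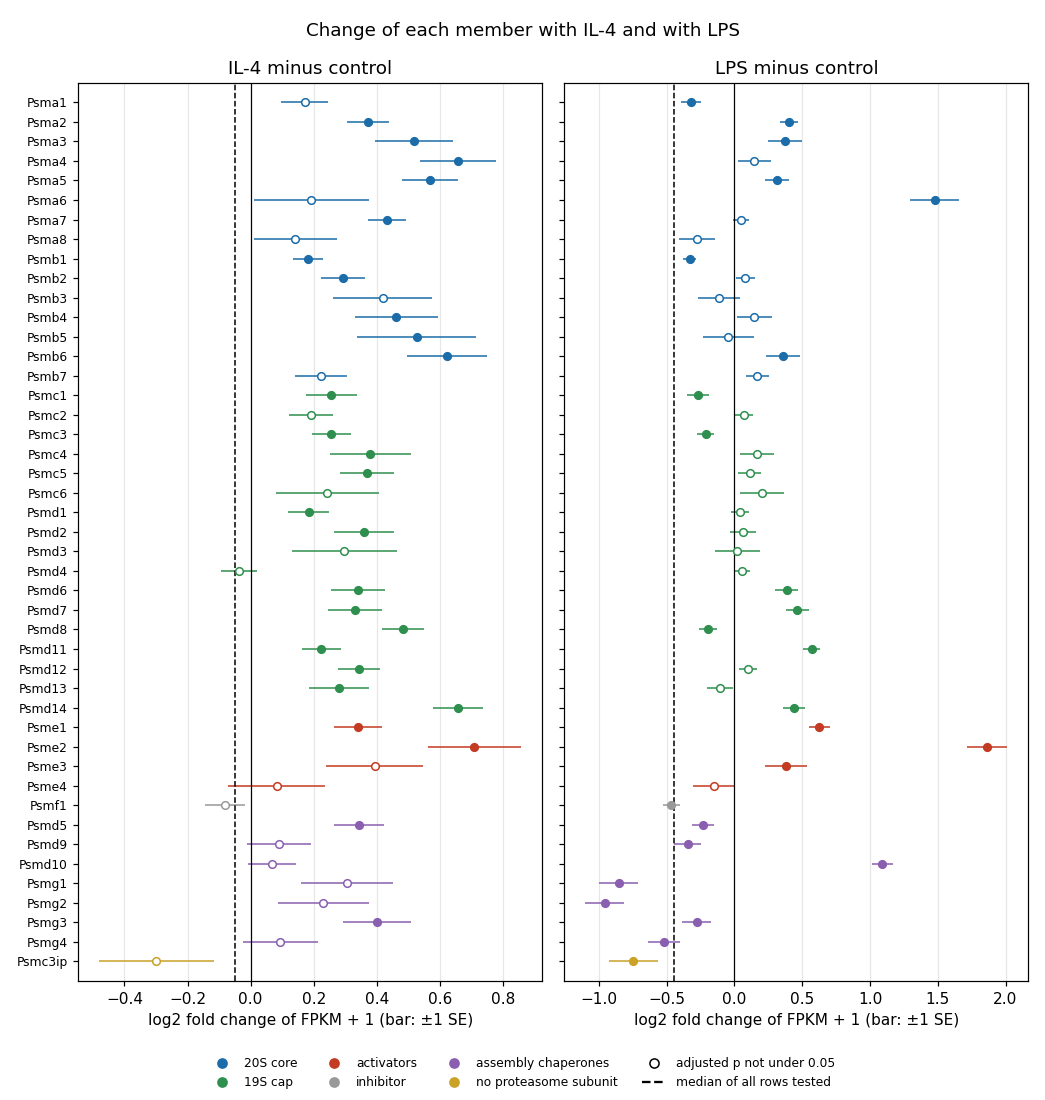
Log2 fold change of FPKM + 1 for each of the 45 members, with IL-4 (left) and with LPS (right) against control; points are estimates with bars of 1 SE, filled where the adjusted p is under 0.05, coloured by class, and the dashed line is the median of all 11191 rows. IL-4 estimates are above 0 for 42 members, whereas LPS estimates run from -0.96 (Psmg2) to 1.87 (Psme2).

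LPS divided the members. Against control 13 of 45 were higher and 13 were lower, where 16.9% of all rows were higher and 57.7% lower, and the members' median was 0.07 against -0.44 over all rows. After median scaling 29 members were higher and 3 lower, whereas 2966 of all 11191 rows were higher and 4453 lower in place of 1887 and 6462. Quantile normalization gave 12 members higher and 8 lower, beside 2903 and 4326 of all 11191 rows. Replicates 2 and 3 alone gave 15 higher and 14 lower, and 19 of the 26 calls held whichever sample was removed.

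The core subunits had a median log2 fold change of 0.15 ± 0.06 (SD between the LPS samples, n = 3) with LPS. Of these 15, 5 were higher and 2 lower, or 10 higher and 0 lower after median scaling. That median fell to 0.04 without control replicate 1. Taken sample by sample, the core medians with LPS were 0.02, 0.14 and 0.11. The cap had a median of 0.07 ± 0.02, with 4 of 17 higher and 3 lower, or 15 higher and 0 lower after median scaling. These SDs leave out the control samples, whose cap medians ran from -0.057 to 0.024. Of the ATPases 0 of 6 were higher and 2 were lower (Psmc1 and Psmc3), where 57.7% of all rows were lower, and after median scaling 5 were higher and 0 lower. The activators had a median of 0.50 ± 0.06, with 3 of 4 higher before and after scaling. The chaperones had a median of -0.35 ± 0.07, against -0.44 over all rows, with 1 of 7 higher and 6 lower. After median scaling the chaperone median was -0.02, with 1 higher and 2 lower.

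**Figure D3:**
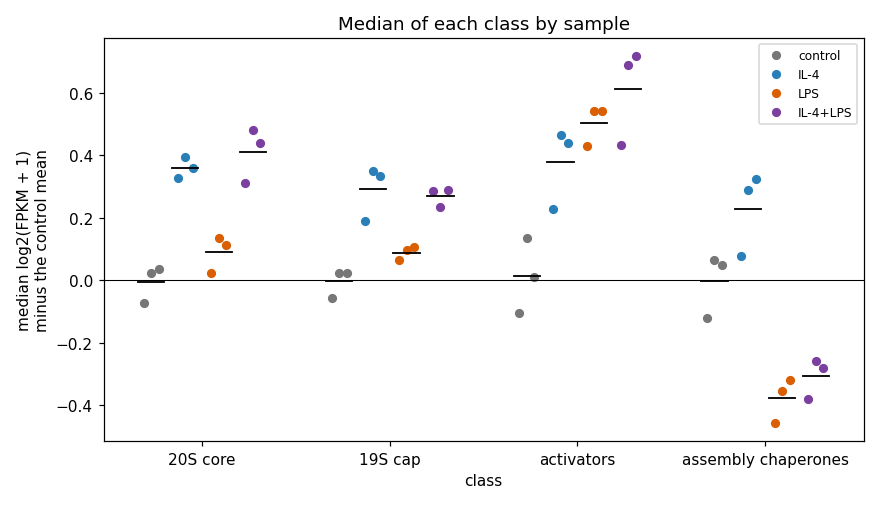
Median over each class of log2(FPKM + 1) minus the control mean, for the 4 largest classes (horizontal axis) in each of the 12 samples (points, coloured by group), with the mean of each group as a short line. The 3 LPS samples of the activators lie between 0.43 and 0.54 and those of the assembly chaperones between -0.45 and -0.32.

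Psme2, Psma6 and Psmd10 rose most with LPS. Psme2 was at 133, 150 and 154 FPKM in LPS, above every control sample, with a log2 fold change of 1.87 ± 0.15 (adjusted p = 1.24e-06, limma). Its partner Psme1, PA28 alpha, was at 99.1, 105 and 91.4 FPKM in control and 159, 149 and 149 FPKM in LPS, a log2 fold change of 0.63 ± 0.08 (adjusted p = 2.72e-05, limma). Psme3, the nuclear PA28 gamma, had a log2 fold change of 0.38 ± 0.15 (adjusted p = 0.0429, limma) with overlapping groups, and Psme4 one of -0.15 ± 0.15 that did not pass. The groups of Psme1 and Psme2 did not overlap.

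Psma6, an alpha ring subunit, had the largest LPS change of the core. It was at 104, 109 and 115 FPKM in control and 249, 332 and 343 FPKM in LPS, a log2 fold change of 1.48 ± 0.18 (adjusted p = 2.97e-05, limma). The LPS samples all lay above the highest control sample, and replicate 1 was the lowest of them. None of the 50-base words of Psma6 occurred in another gene (0%). The other 14 core subunits lay between -0.33 and 0.40. Psmd10, gankyrin, was at 16, 17.8 and 17.2 FPKM in control and 39.3, 35.3 and 37.6 FPKM in LPS, a log2 fold change of 1.09 ± 0.08 (adjusted p = 5.4e-07, limma). It was the only chaperone that rose.

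The 4 cap subunits that rose with LPS were Psmd11, Psmd7, Psmd14 and Psmd6, all of which encode lid subunits. The lid did not rise as a whole, since Psmd12, Psmd3 and Psmd13 did not pass the threshold. Psmd8, also of the lid, was lower by the unscaled values (log2 fold change -0.20 ± 0.07, adjusted p = 0.0194, limma). After median scaling Psmd8 was 0.17. Psmd11 was at 17.3, 19.9 and 17.5 FPKM in control and 27.5, 27.9 and 27 FPKM in LPS, a log2 fold change of 0.57 ± 0.06 (adjusted p = 1.4e-05, limma). The groups did not overlap, and Psmd7 (0.46 ± 0.09), Psmd14 (0.44 ± 0.08) and Psmd6 (0.39 ± 0.08) followed on the same scale. Psmd4 had a log2 fold change of 0.06 ± 0.06 (adjusted p = 0.396, limma). Psmc1, an ATPase, was lower by the unscaled values (log2 fold change -0.27 ± 0.08, adjusted p = 0.0116, limma) and was 0.09 after median scaling.

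Psmg1 and Psmg2, chaperones of the core, fell with LPS. Psmg1 was at 10.1, 10.9 and 11.1 FPKM in control and 4.43, 6.24 and 5.87 FPKM in LPS, a log2 fold change of -0.86 ± 0.15 (adjusted p = 0.00032, limma) and of -0.53 after median scaling. Its partner Psmg2 was at 7.68, 10.1 and 9.01 FPKM in control and 5.09, 4.1 and 3.26 FPKM in LPS, a log2 fold change of -0.96 ± 0.14 (adjusted p = 0.000127, limma) and of -0.64 after median scaling. Neither pair of groups overlapped, and both calls held under median scaling, as did that of Psmc3ip, whose log2 fold change was -0.75 ± 0.18 at 1.32 ± 0.47 FPKM in control and 0.365 ± 0.059 FPKM in LPS. Psmg4, Psmg3, Psmd9 and Psmd5 were also lower, but not past the threshold after scaling, where Psmg3 and Psmd5 changed sign. Psmf1 had a log2 fold change of -0.47 ± 0.06 (adjusted p = 6.13e-05, limma), close to the shift of all rows, and -0.14 after median scaling, where it was not called.

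**Figure D4:**
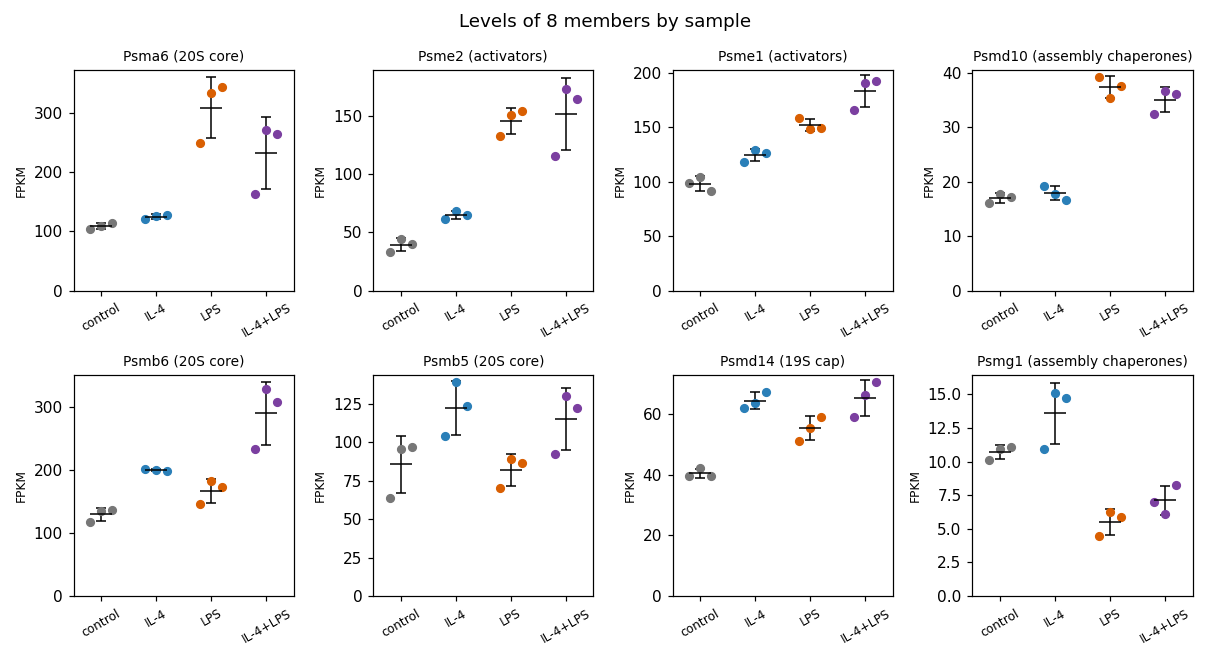
FPKM of 8 members in the 12 samples (points) by group, with the mean (line) and SD (bars, n = 3). Psma6, Psme2, Psme1 and Psmd10 are higher in LPS than in control in every sample, Psmg1 is lower, and Psmb6 is highest in IL-4+LPS, where its samples lie between 233 and 328 FPKM.

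In cells that had met IL-4, the LPS response was also mixed in direction. In IL-4+LPS minus IL-4, 9 of 45 members were higher and 10 lower, where 15.0% of all rows were higher and 57.9% lower, and median scaling gave 27 higher and 3 lower, against 2629 and 4057 of all rows in place of 1682 and 6474. Replicates 2 and 3 alone gave 11 higher and 14 lower. The members with the largest rises were Psme2 (log2 fold change 1.19 ± 0.15), Psmd10 (0.93 ± 0.08) and Psma6 (0.85 ± 0.18). Psma6 was at 121, 126 and 128 FPKM in IL-4 and 162, 270 and 264 FPKM in IL-4+LPS, with no overlap and replicate 1 lowest. Those with the largest falls were Psmg1 (-0.84 ± 0.15), Psmg2 (-0.79 ± 0.14) and Psmg3 (-0.61 ± 0.11), on the log2 scale, and all 3 stayed past the threshold after median scaling.

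IL-4 also raised members in the presence of LPS. In IL-4+LPS minus LPS, 12 of 45 members were higher and 0 lower by limma, where 15.0% of all rows were higher and 15.8% lower. At an unadjusted p under 0.05, 1 member was lower, and a per-gene Tukey test gave 0. Same-numbered samples of these groups deviated together (r of 0.386, 0.181 and 0.119). So did LPS replicate 2 with IL-4+LPS replicate 3 (0.22) and LPS replicate 3 with IL-4+LPS replicate 2 (0.133). With the replicate number as a block, 24 members were higher and 1 lower, Psma6. Replicates 2 and 3 alone gave 27 higher and 1 lower, again Psma6. Shares of all rows are not given for the block or for replicates 2 and 3. These higher counts are therefore not read as particular to the members. The median over the members was 0.18, against -0.03 over all rows. The core had 6 of 15 higher and a median of 0.33 ± 0.08 (SD between the IL-4+LPS samples, n = 3). The cap had 4 of 17 higher and 0.16 ± 0.02, and the activators 1 of 4 and -0.01 ± 0.12.

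All 12 members that were higher in this comparison were also among the 27 higher in IL-4 minus control (44.4% of the 27). These comparisons share no sample, but their tests share 1 estimate of the spread over all 12 samples. The matching overlap over all rows was not counted, so this overlap is not read as particular to the members. The 12 members were Psma4, Psma5, Psma7, Psmb1, Psmb2 and Psmb6 of the core, Psmc3, Psmc5, Psmd8 and Psmd14 of the cap, Psme1, and Psmd5, a chaperone of the base. Over the 45 members the log2 fold changes of the 2 comparisons had a Pearson r of 0.43, against 0.58 over all 11191 rows, as a description across genes, which are not independent replicates. Psmb6 changed most, from 145, 182 and 172 FPKM in LPS to 233, 328 and 307 FPKM in IL-4+LPS. The groups did not overlap (log2 fold change 0.79 ± 0.13, adjusted p = 0.000988, limma). Psmd8 followed, at 105, 122 and 114 FPKM in LPS and 175, 176 and 173 FPKM in IL-4+LPS (0.62 ± 0.07, adjusted p = 5.39e-05, limma). Psma5 was at 34.8, 30.6 and 35.1 FPKM and then 49.8, 47.3 and 45.3 FPKM (0.49 ± 0.09, adjusted p = 0.0019, limma).

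**Figure D5:**
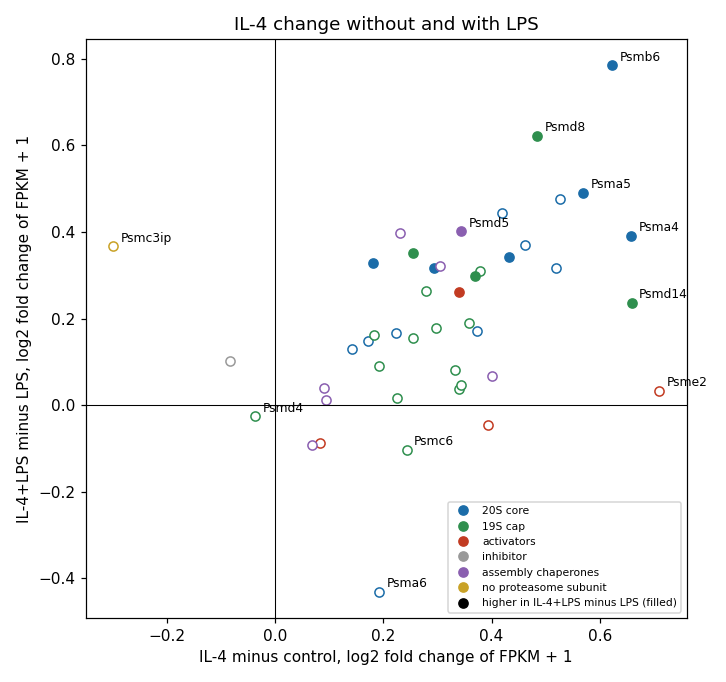
Log2 fold change of FPKM + 1 with IL-4 in cells without LPS (horizontal) and with LPS (vertical) for each of the 45 members, coloured by class and filled where higher in IL-4+LPS than in LPS. Psmb6 and Psmd8 lie highest, Psme2 lies far right at 0.03 on the vertical axis, and Psma6 lies lowest at -0.43.

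The interaction, the LPS response after IL-4 minus that without it, was called for 1 member. Psmd14 was at 51.2, 55.4 and 59 FPKM in LPS and 59, 66.3 and 70.7 FPKM in IL-4+LPS, and its interaction was -0.42 ± 0.11 (adjusted p = 0.0418, limma). The LPS rise of 0.44 in cells without IL-4 stood beside 0.02 in cells with it. The call was not past the threshold after median scaling (adjusted p = 0.0622, limma) and held in 3 of 12 fits with a sample removed, those without IL-4 replicate 1, LPS replicate 1 or IL-4+LPS replicate 3. Among all rows 4.58% had a positive and 4.63% a negative interaction past the threshold. With replicates 2 and 3 alone, 3 members had a positive interaction and 9 a negative one. The shares of all rows just given belong to the fit of all 12 samples, and none is given for replicates 2 and 3. Psme2 (-0.68 ± 0.21, adjusted p = 0.0735, limma) and Psma6 (-0.62 ± 0.26, adjusted p = 0.169, limma) had larger estimates that did not pass.

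The immunoproteasome subunits are given for reference. Psmb8 was at 85.2 ± 5.7 FPKM in control cells, 109 ± 4.1 with IL-4, 165 ± 9.8 with LPS, and 195 ± 15 with both. Psmb9 was at 50.2 ± 5.6, 45.6 ± 3.3, 86.6 ± 4.9 and 108 ± 12 FPKM, and Psmb10 at 66.2 ± 8.4, 144 ± 7.9, 142 ± 4.1 and 178 ± 1.9 FPKM in the same order. With IL-4 alone, Psmb10 and Psmb8 rose (log2 fold change 1.11 ± 0.08 and 0.36 ± 0.08), and Psmb9 had -0.13 ± 0.10, which did not pass.

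Other genes of the pathway were described from a list of 25 genes, all expressed. With IL-4, 6 of 25 were higher and 2 lower, beside 16.0% and 21.0% of all rows. Those higher were Pomp, a chaperone of the core (236 ± 23 FPKM in control, 323 ± 24 in IL-4, log2 fold change 0.46 ± 0.09), the proteasome-bound deubiquitinase Usp14 (18.6 ± 1.5 and 28.6 ± 0.67 FPKM, 0.60 ± 0.06), the lid subunit gene Shfm1, the segregase gene Vcp, the shuttle factor gene Rad23b and Akirin2, which acts in nuclear import of proteasomes. With LPS, 4 of 25 were higher and 11 lower, beside 16.9% and 57.7% of all rows, and after median scaling 13 were higher and 6 lower, beside 2966 and 4453 of all 11191 rows. Nfe2l1, a transcription factor of proteasome genes, rose from 41.6 ± 1.8 to 57.5 ± 0.59 FPKM with LPS (0.46 ± 0.07, adjusted p = 0.000111, limma). Ddi2, the protease that cleaves the Nfe2l1 product, fell from 21.1 ± 1.5 to 4.82 ± 1.3 FPKM (-1.95 ± 0.19, adjusted p = 6.01e-06, limma). Zfand2a, which encodes a proteasome-binding zinc finger protein, fell from 31.5 ± 1.3 to 5.12 ± 0.64 FPKM (-2.41 ± 0.09, adjusted p = 8.6e-09, limma). With LPS after IL-4, 4 of the 25 were higher and 12 lower, beside 15.0% and 57.9% of all rows, or 11 and 6 after median scaling. In IL-4+LPS minus LPS 6 were higher and 2 lower, beside 15.0% and 15.8% of all rows, and the interaction was negative for Usp14 (-0.61 ± 0.09) and Zfand5 (-1.07 ± 0.17).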

How the data were processed

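Poly-A RNA of 12 samples was sequenced as paired reads by the authors, who mapped the reads to mm10 and computed expression; the submitters' processing notes name TopHat2 2.0.7 and Cufflinks 2.0.2. The deposited values are FPKM per gene, 1 table per sample, from the authors without further scaling between samples. The kit did not mark strand, and exons of 10 expressed members overlap those of a gene on the other strand. Counts and absolute depth are not analysed here, and relative depth was read from the steps of low values. The LPS dose is that of the labels, and the study's methods write its unit differently. The study describes 3 animals from 2 independent experiments, without saying which sample came from which, so the experiment cannot be told apart from the replicate number, and p-values measure the spread between samples. For LPS and IL-4+LPS, deviations from the group means correlated between same-numbered samples with r of 0.386, 0.181 and 0.119. Replicates 2 and 3 also correlated across numbers, with r of 0.22 and 0.133. The main fit took no pairing. The numbers were used as pairs only in the replicate block, from the data alone, which do not settle the pairing of replicates 2 and 3. In the other group pairs at least 1 r was under 0.1.

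Rows with at least 1 FPKM in at least 1 of 12 samples were transformed to log2(FPKM + 1), which understates changes of low genes. A group-means model was fitted with limma 3.58.1 (trended eBayes) in R 4.3.3, with Benjamini-Hochberg adjustment over all 11191 rows per contrast and a threshold of 0.05. The script was tested on simulated data. Groups came from the labels. Class medians are medians over genes of the fold changes and are given with no test. The SD beside them is that of the sample medians in the first-named group, which need not centre on the class median. That SD leaves out the spread of the group compared against.

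The members and lists were chosen with earlier results of these data known. Named members are those set for their role and the 3 called with the largest change in each direction per contrast. Members called in the interaction or not expressed are also named. Further members appear in class counts, overlaps, control levels, lists of calls within a class and remarks on sequence. Alternatives were a pseudocount of 0.1, no filter, at least 1 FPKM in at least 3 samples, median scaling, quantile normalization, no trend, only the groups compared, the replicate block, Tukey tests gene by gene, and removal of each sample. Replicates 2 and 3 only, without and with median scaling, were added after seeing the data. Shared sequence was measured on GENCODE vM21 transcripts. One promoter motif searched is not reported here. Figures used matplotlib 3.10.9.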

Additional observations from a re-analysis of the deposited data

Results flagged for a closer look

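The LPS response of Psmd14, the deubiquitinase of the 19S lid, differed between cells without and with IL-4 by the interaction test, with a difference of -0.42 on the log2 scale (limma, adjusted p = 0.0418). The estimate lay between -0.48 and -0.35 when each sample was left out in turn. The call was lost in 9 of these 12 fits, after median scaling (adjusted p = 0.0622, limma) and with no trend. Groups held 3 samples, so no sample was tested as an outlier.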

How the results depend on the processing

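Of the 85 calls among the members, 85 kept their direction and stayed past the threshold with the filter of 3 samples, 85 with the replicate block and 85 with replicates 2 and 3 only, 83 with a pseudocount of 0.1, 81 with no filter, 80 with no trend, 72 with only the groups compared, 65 with quantile normalization and 66 with median scaling. A per-gene Tukey test, which was not run for the interaction, kept 73 calls and lost 11. Median scaling lifts the LPS groups by construction. Under it LPS minus control had 29 members higher and 3 lower (32 and 3 with replicates 2 and 3 only), IL-4+LPS minus IL-4 had 27 and 3 (33 and 3), and the interaction was called negative for 0 (8, and 1 positive). The class medians for LPS minus control became 0.51 for the core, 0.43 for the cap and 0.87 for the activators (0.51, 0.47 and 0.88 with replicates 2 and 3 only). For IL-4+LPS minus LPS, replicates 2 and 3 only under median scaling gave 28 higher and 1 lower, with an activator median of 0.0839. Quantile normalization gave 8 members lower with LPS, medians of 0.0311 for the core and -0.00548 for the cap with LPS, 0.35 for the core with IL-4 and 0.12 for the cap in IL-4+LPS minus LPS, 1 lower in that comparison (Psma6), and 2 negative interactions. With no trend 0 interactions were called. Replicates 2 and 3 only gave 27 higher and 1 lower in IL-4+LPS minus LPS, 3 positive and 9 negative interactions, and a core median of 0.37 with IL-4. Shares of all rows are not given for replicates 2 and 3 only. The cause of these differences between settings was not tested.

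Signs turned as follows. For LPS minus control under median scaling (replicates 2 and 3 only in parentheses), Psma1 became 0.0431 (0.0493), Psmb1 0.0374 (0.0338), Psmc1 0.0946 (0.0168), Psmc3 0.152 (0.154), Psmd5 0.12 (0.0771), Psmd8 0.172 (0.212) and Psmg3 0.0635 (0.0366), and Psmb5, not called before, 0.257 in the latter. For IL-4+LPS minus IL-4, Psma1 became 0.015 (0.0567), Psma7 0.319 (0.372), Psmb1 0.178 (0.22), Psmd12 0.159 (0.116) and Psmf1 0.0399 (0.0403), and in the latter Psmb5 became 0.338, Psmc6 0.244, Psmd9 0.0106 and Psme3 0.308. Of these Psma7, Psmb5, Psmc6 and Psme3 were not called before scaling. Quantile normalization turned Psmd9 (0.0641) and Psmg3 (0.034) for LPS minus control and Psmf1 (0.123) for IL-4+LPS minus IL-4.

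Leaving out each sample in turn gave 17 to 30 members higher with IL-4 (17 without IL-4 replicate 3), 0 to 1 lower in IL-4+LPS minus LPS (1 without LPS replicate 1, Psma6) and 0 to 2 negative interactions. The core medians ranged from 0.0421 to 0.15 with LPS and 0.33 to 0.45 with IL-4. The cap medians ranged from 0.26 to 0.37 with IL-4 and 0.12 to 0.18 in IL-4+LPS minus LPS, where the activator median ranged from -0.0634 to 0.14. Calls lost in at least 1 of these fits were, with IL-4, Psmb4, Psmb5, Psmc1, Psmc4, Psmd1, Psmd2, Psmd7, Psmd11, Psmd13 and Psmg3; with LPS, Psma3, Psmb6, Psmc1, Psmd5, Psmd8, Psme3 and Psmg3; in IL-4+LPS minus IL-4, Psma2, Psma5, Psmd7 and Psmd12; and in IL-4+LPS minus LPS, Psma4, Psmc5, Psmd14 and Psme1.

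Replicate numbers were checked for pairing. The deviations of same-numbered samples had r from 0.0024 to 0.386, over 0.1 in 11 of 18 pairs, and 9 of 12 samples correlated best with their own number. The main fit did not pair the samples in any comparison, and the replicate block was an alternative setting. With the replicate block, IL-4+LPS minus LPS had 24 members higher and 1 lower, and 7 interactions were negative. Shares of all rows are not given for these block counts. Depth limits the members near 1 FPKM, Psma8 and Psmc3ip, most.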
